A study of Homo sapiens with 20 samples.

Results

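KMT2D, NCBP2, FZD8 and ADGRE5 are the coding genes nearest to 4 MYC binding sites that ranked well in every MYC library of SLK-knockout PC-3 cells and were listed in no MYC library of wild-type cells. PC-3 is an established human prostate cancer cell line. ChIP-seq, the sequencing of DNA recovered with an antibody to a chromatin protein, was applied to wild-type PC-3 cells (WT) and to PC-3 cells with the kinase gene SLK knocked out, which the labels call PSD10 (SLK-KO), with 3 libraries per genotype for MYC and 3 for RNA polymerase II (POL2). All cells were grown to the same confluence with no drug treatment stated, and the knockout carries the name PSD10 in every library, so if that name stands for 1 line, loss of SLK and other properties of the line cannot be told apart. Each library has a list of summits, the single base at which a called peak was highest, with a score that ranks the summits within that list (rank 1 is best). The 6 IgG and 2 Input libraries were not analysed here.

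The 4 genes were chosen from the MYC lists themselves. Summits of the 6 MYC lists lying 250 bp or less apart were joined into 2348 sites, of which 163 (6.94%) were in 3 SLK-KO and 0 WT lists, and the 4 genes own the 4 best of these by median SLK-KO rank. Presence and rank of MYC at the 4 genes are therefore a description of the choice and carry no test. POL2, the DNA sequence and the related genes were not part of the choice. The genes are 4 of 20007 protein-coding genes considered.

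MYC is a transcription factor that pairs with MAX and binds the E-box CACGTG, mostly in promoters that already carry polymerase. SLK is a kinase of the STE20 family, and the study's title calls it a co-regulator of MYC. The 4 genes have separate roles. KMT2D encodes a histone H3 lysine 4 methyltransferase that works at enhancers, NCBP2 the small subunit of the nuclear complex that binds the cap of new messenger RNA, FZD8 a Frizzled receptor for Wnt ligands, and ADGRE5 (the protein CD97) an adhesion G protein-coupled receptor whose ligands include CD55.

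Sequences at the 4 MYC sites are shown because they differ in the motif they hold. They are GRCh38 sequence, written 5′ to 3′ on the strand of the gene. Capitals mark CACGTG in KMT2D and ADGRE5 and the E-box-like CACGAG, read on this strand as CTCGTG, in NCBP2 and FZD8. At NCBP2 and ADGRE5 the site lies in transcribed 5′ sequence, and 30 bases placed to hold the motif are shown. Those of NCBP2 hold the summits of SLK-KO replicates 1 and 2, while the site centre and the replicate 3 summit lie outside. Those of ADGRE5 hold the site centre and the summit of SLK-KO replicate 2.

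KMT2D, chr12:49060795-49060995, minus strand: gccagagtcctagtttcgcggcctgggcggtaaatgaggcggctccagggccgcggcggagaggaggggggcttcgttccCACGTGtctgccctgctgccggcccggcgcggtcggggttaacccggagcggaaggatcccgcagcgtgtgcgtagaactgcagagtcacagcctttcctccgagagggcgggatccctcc
ADGRE5, chr19:14381251-14381280, plus strand: tcttactgagtgCACGTGtgtgtgtgtgtg
NCBP2, chr3:196942518-196942547, minus strand: cCTCGTGccgggagtcgccgcattgtggtc
FZD8, chr10:35643209-35643409, minus strand: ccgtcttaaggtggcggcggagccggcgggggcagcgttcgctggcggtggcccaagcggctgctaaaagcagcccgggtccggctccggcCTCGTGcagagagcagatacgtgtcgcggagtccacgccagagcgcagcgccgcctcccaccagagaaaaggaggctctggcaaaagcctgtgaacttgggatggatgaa

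KMT2D (ENSG00000167548.18, chromosome 12, 49018975 to 49060794, minus strand) held MYC summits just upstream of its start, in sequence that GENCODE assigns to no gene. They lay at 49060895, 49060862 and 49060862 in SLK-KO replicates 1, 2 and 3, which is 101, 68 and 68 bp upstream of the main start site (that of the MANE Select transcript). Their ranks were 42 of 1218, 63 of 1420 and 87 of 988. The summits of replicates 2 and 3 fell on the same base. The nearest WT MYC summit was 1301715 bp away. The middle of CACGTG lay 17.5 bp from the summit of replicate 1 and 50.5 bp from the other summits.

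NCBP2 (ENSG00000114503.11, chromosome 3, 196935402 to 196942594, minus strand) was bound almost exactly at its start. MYC summits were at 196942530, 196942526 and 196942490 in SLK-KO replicates 1 to 3, from 2 bp upstream to 38 bp downstream of the main start site. The first and second were in the 5′ untranslated region of annotated transcripts and that of replicate 3 in the first coding exon. Ranks were 69, 58 and 159, so the site stood lower in replicate 3 than in the other libraries. The gene shares this region with a divergent neighbour, NCBP2AS2, whose start is 164 bp from the centre of the site, and with an exon of the antisense lncRNA NCBP2-AS1. The nearest WT MYC summit was 860925 bp away.

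FZD8 (ENSG00000177283.8, chromosome 10, 35638247 to 35642296, minus strand) differed from the other genes in the distance of its site. Summits at 35643308, 35643297 and 35643321 in SLK-KO replicates 1 to 3 lay 1012, 1001 and 1025 bp upstream of its single annotated start, in an intron of the lncRNA ENSG00000287528 on the other strand. Ranks were 71, 43 and 172. SLK-KO replicate 3 also had a weak summit 257 bp upstream of the start, at rank 955 of 988. The 3 main summits fell within 24 bp, the closest grouping of the 4 genes. Other starts near the site were those of the lncRNA ENSG00000288893 (1309 bp), the microRNA gene MIR4683 (2057 bp) and ENSG00000287528 (2212 bp). The nearest WT MYC summit was 306763 bp away.

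ADGRE5 (ENSG00000123146.20, chromosome 19, 14380501 to 14408725, plus strand) had MYC summits at 14381295, 14381253 and 14381224 in SLK-KO replicates 1 to 3. They lay 149, 191 and 220 bp upstream of the main start site and inside the 5′ untranslated region of a longer annotated transcript. Ranks were 66, 76 and 83, the narrowest range of the 4 genes. CACGTG lay between the summits, its middle 29.5, 12.5 and 41.5 bp from them, and ran straight into a stretch of alternating t and g. The nearest WT MYC summit was 1435556 bp away.

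**Figure D1:**
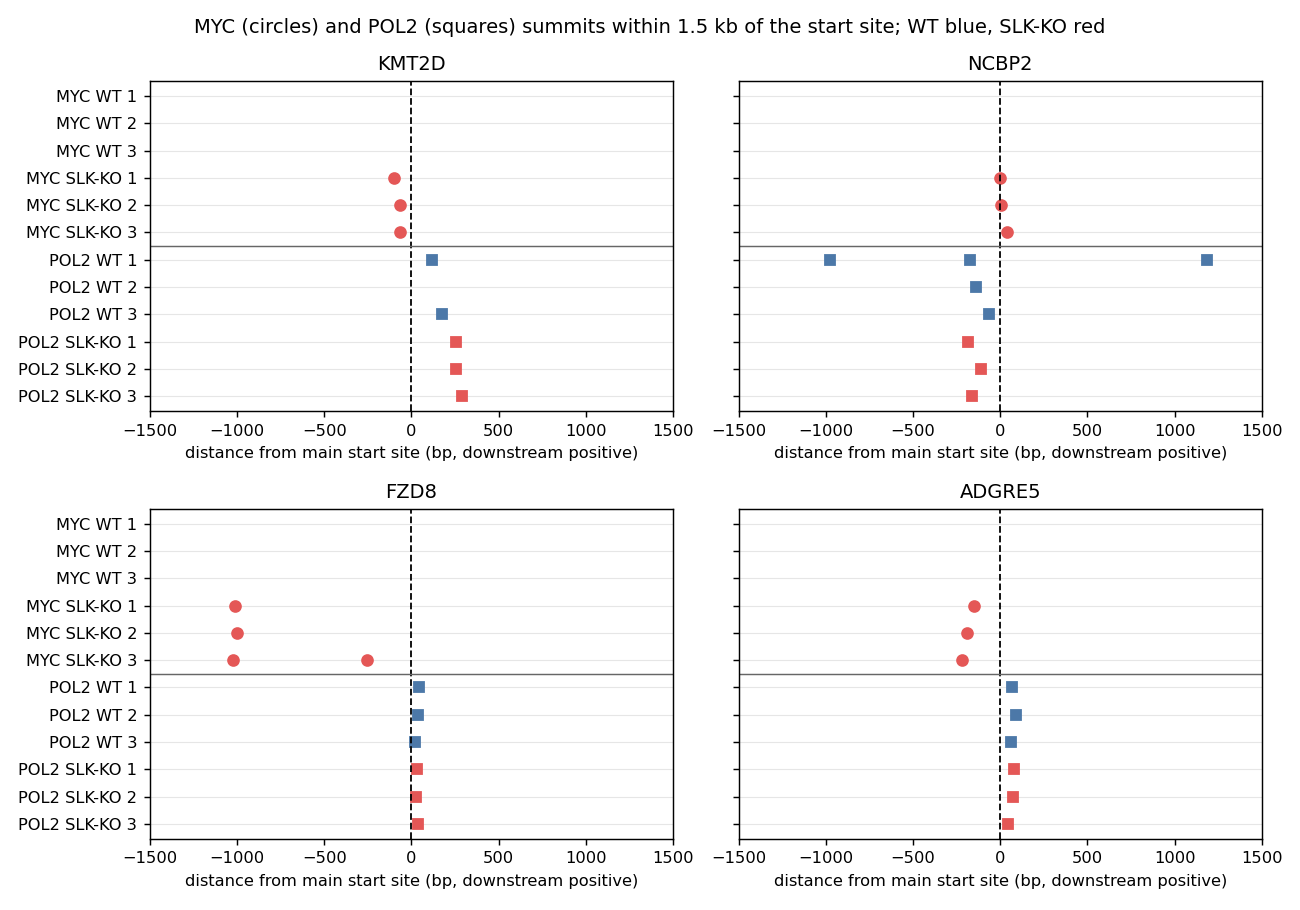
Position of each MYC summit (circles) and POL2 summit (squares) relative to the main start site in bp (downstream positive), 1 row per library, WT in blue and SLK-KO in red. The WT MYC rows are empty by the choice of genes, the FZD8 MYC summits stand about 1 kb upstream, and POL2 summits lie near the start in every library except WT replicate 2 at KMT2D.

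All 4 sites were within the 201 best summits of every SLK-KO list, 201 being the length of the shortest WT list. When all 6 lists were reduced to their 201 best summits, 9 of 498 sites (1.81%) were in 3 SLK-KO and 0 WT lists, and the 4 sites were among these 9. That the 4 were kept follows from their ranks and their absence from the WT lists, and is no test. Of the 89 sites in 3 SLK-KO lists with a median rank of 100 or better, 51 were in 3 WT lists, 24 in 2, 8 in 1 and 6 (6.74%) in 0. None of the 47 sites with a median rank of 1 to 50 was in 0 WT lists, against 6 of 42 at 51 to 100, 12 of 71 at 101 to 200 and 145 of 264 beyond 200. The share of sites listed in no WT library was thus larger at worse SLK-KO ranks, as the plot of median rank by number of WT lists shows. In the span of median ranks of the 4 sites, 63 to 76, were 11 other sites in 3 SLK-KO lists, of which 5 were in 3 WT lists, 5 in 2 and 1 in 1.

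**Figure D2:**
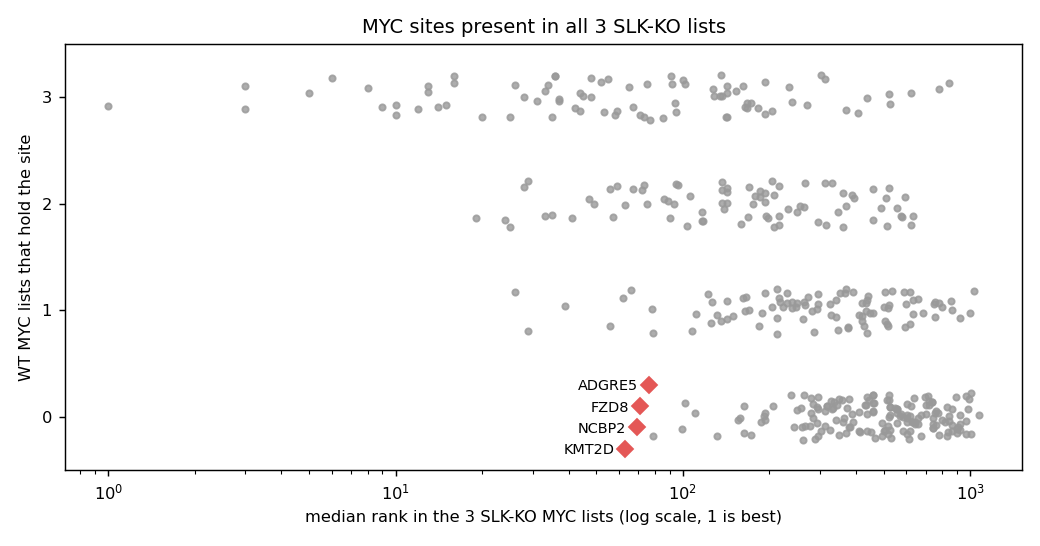
Each point is a MYC site present in all 3 SLK-KO lists, placed by its median SLK-KO rank (log scale, best at the left) and by how many WT MYC lists hold it (points spread vertically within a row for legibility). The 4 chosen sites, at median ranks 63 to 76, stand at the left edge of the bottom row, where most other sites lie beyond rank 200.

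Just outside the choice, the next sites in 3 SLK-KO and 0 WT lists had median ranks of 79, 99, 102, 110 and 132. The first lay at the MYC gene itself, 558 bp from the start of the lncRNA CASC11. The second was 108 bp from the start of SNHG7, a small nucleolar RNA host gene, with DIPK1B the nearest coding gene at 7407 bp. The third was far from coding starts (ABCB5, 18745 bp). CYTH1, a guanine nucleotide exchange factor for ARF proteins, and TRMT1, a transfer RNA methyltransferase, had their sites within 52 and 1 bp of a start. Members and next sites thus form a continuous series, with 76 the last median rank inside and 79 the first outside.

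CACGTG stood within 100 bp of the site centre at KMT2D and ADGRE5 and not at NCBP2 and FZD8. It was found in 47 of 163 (28.8%, Wilson 95% interval 22.4 to 36.2) of the sites in 3 SLK-KO and 0 WT lists and in 28.0% of all 2328 MYC sites on sequences of the reference. It was more frequent among sites in 3 SLK-KO and 3 WT lists, at 52.5% (41.7 to 63.1), and among sites in 3 SLK-KO lists with a median rank of 1 to 100, at 54.7% (44.2 to 64.7). Many sites belong to both of these kinds. The same 201-base windows held it at 5.88% of coding gene starts and at 1.93% of positions 2 kb from MYC sites. The related words CACGCG, then CATGTG, then CACGAG, then CATGCG and lastly CACGTT were searched on both strands too. Of these 5, CACGAG was found in the window of NCBP2, 33.5 bp from the centre, and of FZD8, 6.5 bp from the centre. ADGRE5 also held CATGTG, 56.5 bp from the centre, and KMT2D held none of the 5. CACGAG was in 13.4% of MYC site windows, 5.27% of windows at coding starts and 4.55% of those 2 kb away, and a match is a description only.

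**Figure D3:**
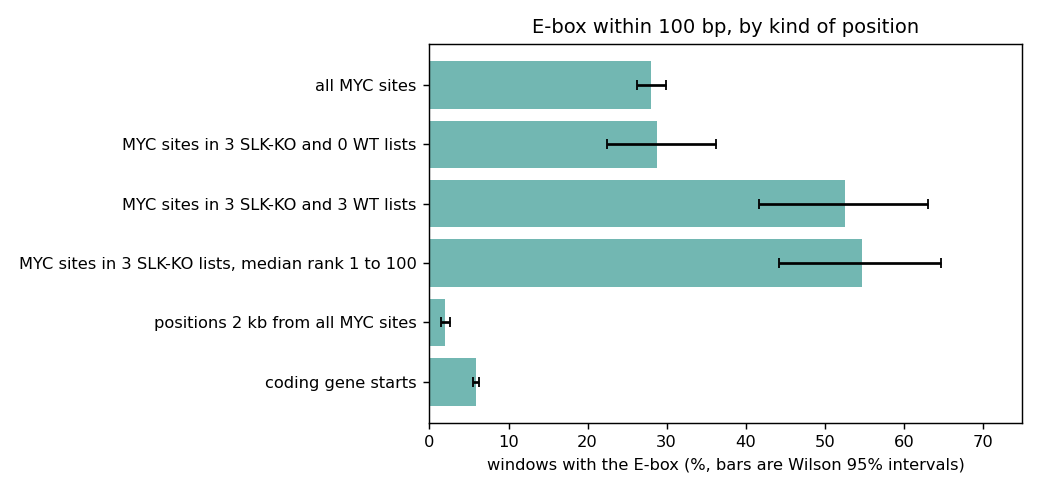
Percent of 201-base windows that hold CACGTG, for kinds of MYC site, for positions 2 kb away and for starts of coding genes, with Wilson 95% intervals that cover counting error only. Sites in 3 SLK-KO and 0 WT lists (28.8%) stand close to all MYC sites (28.0%), and well-ranked sites (54.7%) close to sites found in all 6 lists (52.5%). The last 2 kinds overlap, since 51 of the 89 well-ranked sites were in 3 WT lists.

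Base composition set ADGRE5 apart from the other 3 sites. Its window held 3 CpG dinucleotides and 52.2% G and C, whereas KMT2D held 23 CpG (70.6%), NCBP2 23 (67.2%) and FZD8 20 (66.7%). The quartiles of the 163 sites in 3 SLK-KO and 0 WT lists were 13 and 23 CpG, with a median of 18, so ADGRE5 fell below that span and the others fell within it.

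POL2 was present at the start of NCBP2, FZD8 and ADGRE5 in all 6 libraries and at the start of KMT2D in 5. A POL2 summit within 1 kb of a start in all 6 lists was found for 18.1% of coding genes, and in at least 1 list for 53.8%. Within 5 kb of a start these shares were 20% and 56.9%. Across the 4 genes the number of POL2 summits within 5 kb of any annotated start did not separate the genotypes. KMT2D had 3, 1 and 2 summits in WT replicates 1 to 3 and 2 in each SLK-KO library, and NCBP2 had 3, 1 and 1 against 1 in each. FZD8 had 1, 4 and 3 against 1 in each, the additional WT summits lying in the gene body and just past its end. ADGRE5 had 3, 1 and 3 against 7, 4 and 2. The differences of means (SLK-KO minus WT) were 0 for KMT2D, -0.667 for NCBP2, -1.67 for FZD8 and 2 for ADGRE5. Exact two-sided permutation p-values were 1, 1, 0.4 and 0.4, and all adjusted values over the 8 tests of number and distance were 1. These differences were set by weak summits and by the window: with every list reduced to its 5047 best summits that of ADGRE5 was 0 and that of NCBP2 0, and within 1 kb that of FZD8 was 0. For ADGRE5 it was 0.333 with a score of at least 5 and 0.667 without SLK-KO replicate 1. With 3 libraries against 3 no p below 0.1 is possible.

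At ADGRE5 the POL2 summit sat 42 to 90 bp downstream of the main start site in all 6 libraries, and its place in the list differed by genotype. Its rank was 3582 of 17126, 3001 of 5047 and 2985 of 9925 in WT replicates 1 to 3, and 753 of 19017, 585 of 15436 and 663 of 16298 in the SLK-KO replicates. Every SLK-KO rank was thus better than every WT rank although the SLK-KO lists were on the whole longer. To set the libraries on an equal footing, summits were ranked again among the 3024 POL2 sites present in all 6 lists. The ADGRE5 site then ranked 2376.5, 2206 and 2076 in WT (geometric mean 2216) and 695, 546 and 616 in SLK-KO (geometric mean 616), 3.60 times better in SLK-KO. The log2 rank difference was -1.85, with SDs of 0.10 (WT) and 0.17 (SLK-KO) on the log2 scale (n = 3 each; exact two-sided permutation p = 0.1, the smallest possible, adjusted 0.2 over the 4 sites tested).

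This re-ranking was chosen after the list ranks had been seen. Of the 3024 shared sites, 462 (15.3%) had every SLK-KO rank better than every WT rank and 475 (15.7%) the reverse, so a lack of overlap as such was common. In size the ADGRE5 difference was the 16th of 3024 from the end where SLK-KO ranks were better. The median difference was 0.02 over all shared sites and -0.01 over the 171 on chromosome 19. The 6 other shared sites within 1 Mb of ADGRE5 had a median of 0.13 and ran from -0.88 to 0.35, so none of them moved as far. Leaving out any single library left the ADGRE5 difference between -2.14 and -1.76.

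FZD8 carried the best-ranked POL2 site of the 4 genes. The summit lay 21 to 44 bp downstream of the start and ranked 34, 60 and 41 in the WT lists and 58, 65 and 60 in the SLK-KO lists, inside the best 1.19% of every list. Among shared sites the ranks were 34, 54 and 40 in WT against 56, 63 and 58 in SLK-KO, so every WT rank was better, the opposite order to ADGRE5. This order was common, at 475 of 3024 shared sites (15.7%). In size the FZD8 difference was only the 467th of 3024 from the end where WT ranks were better. The log2 difference was 0.49, with SDs of 0.34 and 0.09 (n = 3 each; exact two-sided permutation p = 0.1, adjusted 0.2). The POL2 summit was 1034 to 1057 bp from the centre of the MYC site in all 6 libraries.

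NCBP2 had its best POL2 summit of each library from 65 to 183 bp upstream of the main start, around the divergent starts of NCBP2 and NCBP2AS2. In WT replicate 1 and SLK-KO replicates 1 and 3 it lay in the 5′ untranslated region of NCBP2AS2, in WT replicate 3 in that of NCBP2, and in replicate 2 of either genotype between the genes. Polymerase at the 2 genes cannot be told apart. WT replicate 1 had weaker summits 1185 bp downstream and 978 bp upstream as well. Shared-site ranks were 1175, 918 and 1861 in WT and 2104, 1994 and 1704.5 in SLK-KO, with overlap. The log2 difference was 0.61, with SDs of 0.52 and 0.16 (n = 3 each; exact two-sided permutation p = 0.2, adjusted 0.267). The 4 other shared sites within 1 Mb had a median of 1.15, in the same direction, and ran from -0.08 to 1.56.

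At KMT2D the POL2 summit of the promoter lay 121 and 176 bp downstream of the start in WT replicates 1 and 3 and 256, 255 and 289 bp downstream in SLK-KO replicates 1 to 3. WT replicate 2, the shortest POL2 list (5047 summits), had none there. Distances from the MYC site centre were 205 and 260 bp in those WT libraries and 340, 339 and 373 bp in SLK-KO. In these 5 libraries every SLK-KO summit was thus farther away than either WT summit. How often other MYC sites separate in this way was not measured, so the separation is a description only. Without WT replicate 2 the difference of log10 distances was 0.18 (exact two-sided permutation p = 0.1, the smallest that 2 against 3 libraries allow). With it the nearest POL2 summit was 42161 bp away in that library and the difference was -0.573 (exact p = 1). With lists reduced to their 5047 best summits the promoter summit, ranked 5852 to 8544, dropped out of every library that held it, and the difference was -0.000685 (exact p = 0.4). Ranks among the 5713 sites shared by the other 5 libraries were 5324.5 and 4392 in WT against 4331.5, 4948.5 and 5151 in SLK-KO, and they overlapped (log2 difference -0.01).

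A further POL2 site within 5 kb of internal KMT2D starts stood past the 3′ end of KMT2D, at the start of PRKAG1, a regulatory subunit of the AMP-activated kinase. This gene was singled out after its values were seen. This polymerase cannot be assigned to KMT2D by position. The site was in all 6 lists, with shared-site ranks of 870, 1533.5 and 714 in WT and 1358, 1175 and 1362.5 in SLK-KO, which overlapped (log2 difference 0.40, exact two-sided permutation p = 0.4, adjusted 0.4). It stood far better in the lists than the promoter of KMT2D itself.

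**Figure D4:**
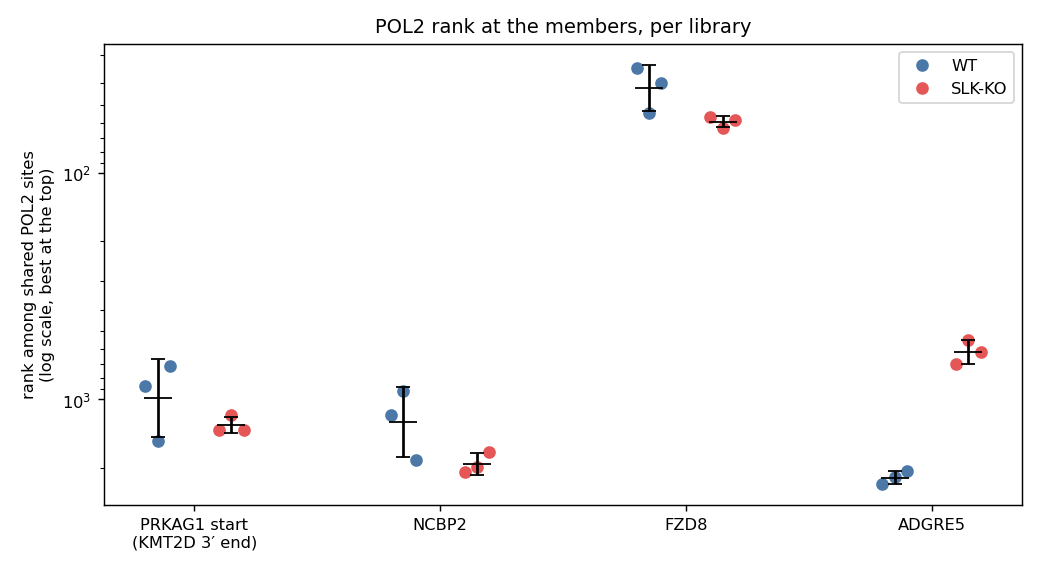
Rank of the POL2 site at each gene among the 3024 sites in all 6 POL2 lists (log scale, best at the top), 1 point per library, with geometric mean and 1 SD on the log2 scale as bars. ADGRE5 stands at 2076 to 2376.5 in WT and 546 to 695 in SLK-KO, while the FZD8 ranks lie between 34 and 63.

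A POL2 summit within 500 bp of the MYC site centre in all 6 POL2 lists was found at NCBP2 and ADGRE5, in 5 lists at KMT2D and in 0 at FZD8, a distance set after the values were seen. Of the 163 sites in 3 SLK-KO and 0 WT lists 58 (35.6%) had POL2 in all 6 lists and 28 (17.2%) in 0. For all 2348 MYC sites the shares were 32.9% and 15.9%, close to these, and for the sites in 3 SLK-KO and 3 WT MYC lists they were 51.2% and 4.76%.

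The relatives of the 4 genes were taken from lists drawn up with earlier results of these data known. Each list includes 1 of the 4 genes, so the place of that gene in the MYC counts below was fixed by the choice. A MYC summit within 5 kb of a start in 3 SLK-KO and 0 WT lists was found for 197 of 20007 coding genes (0.985%), in all 6 lists for 0.555%, which included no listed relative, and in at least 1 list for 11%. In the COMPASS family of H3 lysine 4 methyltransferases and their partners, KMT2D was the only gene of 17 with this pattern. Of the 17, 15 (88.2%) had no MYC summit in any list, near the 89% of all coding genes. POL2 was within 5 kb of 6 of the 17 (35.3%) in all 6 lists, among them the core subunits RBBP5, ASH2L and DPY30. It was near 16 (94.1%) in at least 1 list. The shares of all coding genes were 20% and 56.9%. WDR5, a further core subunit, had POL2 in 1 WT and 3 SLK-KO lists. KMT2D counts among the 6 through the POL2 site at the start of PRKAG1.

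In the list of 10 genes of cap binding, its partners and translation initiation, NCBP2 was the only gene with MYC in 3 SLK-KO and 0 WT lists. EIF4A1, the RNA helicase of the initiation complex, had MYC summits in 1 WT and 3 SLK-KO lists, at rank 44 in WT replicate 3 and 69, 150 and 72 in SLK-KO. EIF4G1, its scaffold, had them in 2 WT lists (ranks 329 and 185) and 3 SLK-KO lists (509, 927 and 387). SRRT, a partner of the nuclear cap-binding complex, had 1 WT summit (rank 263) and 3 in SLK-KO (1085, 413 and 753), each over 1 kb from a start. NCBP2 had no WT MYC summit by its choice, so its contrast with these genes is a description only. The other listed genes had none in WT either. Of the 10 genes, 5 (50%) had no MYC summit in any list, against 89% of all coding genes. POL2 was in all 6 lists at 7 of the 10 (70%), against 20% of coding genes.

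The Wnt receptor list of 21 genes held the Frizzled family, the co-receptors LRP5, LRP6, RYK, ROR1 and ROR2, the related receptor SMO of the Hedgehog pathway, the cytoplasmic Dishevelled proteins DVL1, DVL2 and DVL3, and the ubiquitin ligases ZNRF3 and RNF43, which remove Frizzled receptors from the cell surface. In it FZD8 was the only gene with MYC in 3 SLK-KO and 0 WT lists. Of the 21 genes, 19 (90.5%) had no MYC summit in any list, near the 89% of all coding genes. POL2 was in all 6 lists at FZD8, FZD4, LRP5 and ROR1 (19% of the list, against 20% of coding genes). It was in 3 SLK-KO and 0 WT lists at FZD1 and FZD3, a pattern that 1.59% of coding genes had.

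The adhesion receptor list of 22 genes also took in CD55, a ligand of ADGRE5 and a complement regulator on the cell surface. CD55 is no adhesion receptor and was the only ligand listed, with earlier results of these data known. MYC in 3 SLK-KO and 0 WT lists was found for 2 of the 22, ADGRE5, which was chosen for it, and CD55. No other receptor of the list had this pattern. CD55 had summits 3, 7 and 4 bp from a start, at ranks 373, 169 and 736 in SLK-KO replicates 1 to 3, and POL2 in all 6 lists. These ranks were worse than those of ADGRE5, and the first and last lay past 365, the length of the longest WT list. ADGRB1, a brain adhesion receptor, had MYC summits over 3 kb from a start in 2 SLK-KO lists (ranks 436 and 225) and no POL2 summit in any list. POL2 was in all 6 lists at 5 of the 22 genes (22.7%), near the 20% of all coding genes.

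MYC lists ran from 201 to 365 summits in WT and from 988 to 1420 in SLK-KO. POL2 lists ran from 5047 to 17126 summits in WT and from 15436 to 19017 in SLK-KO. Read depth is unknown, so absence from a list says that no peak was called, and its part in the absence of the 4 sites from WT was not tested. POL2 was within 1 kb of a start in all 6 lists for 4 of 6 epithelial markers (KRT8, KRT18, KRT19 and CLDN4), in none for the prostate secretory genes KLK3 and KLK2, and in none for 7 of 8 markers of other cell types. SLK had POL2 at its start in 2 WT and 3 SLK-KO lists, which does not show whether its product was lost.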

How the data were processed

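Per the labels, chromatin from PC-3 cells was precipitated with antibodies to MYC or POL2 and sequenced as 50 bp paired-end reads, which were processed with nf-core/chipseq 2.1.0 against GRCh38.p14. The submitters' processing notes name Trim Galore 0.6.7, cutadapt 3.4, BWA 0.7.18-r1243, Picard 3.2.0 and MACS3 3.0.1. Caller options and the control library are not given in the sources used here. Each deposited file lists the summits of 1 library with a score read as −log10 of the q-value, since each list's lowest score lay just above 1.301. Scores rank summits within a list only, and the files hold no read counts.

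Ranks, chained sites, distances to GENCODE 44 starts and motif matches on GRCh38 were computed with pysam 0.24.0, scipy 1.17.1 and pandas 2.3.3 under Python 3.11.15 (figures: matplotlib 3.10.9), and site and rank counts were tested on simulated data. MYC sites on sequences without reference (20) entered no sequence measure. Tests compared libraries, by exact two-sided permutation of genotype with Benjamini-Hochberg adjustment. The series text calls the libraries biological replicates and does not say how their cultures were kept apart. Members and lists were chosen with earlier results of these data known. Named were the 4 genes, genes within 5 kb of their sites, the next 5 sites, listed relatives with a MYC summit in at least 2 libraries, SLK and cell markers. Some relatives in the POL2 counts and PRKAG1 were named after their values were seen.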

Additional observations from a re-analysis of the deposited data

How the results depend on the processing

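Of 175 alternatives, 155 kept the direction or stayed within 1.5 times a count, 5 reversed, and 15 moved, among them 9 in which a difference in POL2 summit number became 0 or left 0. A kept direction does not mean a kept size. The tests could not pass 0.05 by design, so this says little of their stability. MYC sites in 3 SLK-KO and 0 WT lists, 163 as reported, numbered 93 with a score of at least 5 and 9 in lists of equal length, and 183 to 349 when a library was left out, since fewer lists were then asked for (349 without SLK-KO replicate 3, 271 without SLK-KO replicate 1). Of the well-ranked sites, those in 0 WT lists, 6 as reported, ranged from 4 to 10, with 10 without WT replicate 2. All 4 genes kept their site in each of these settings. Their choice by MYC presence and rank fixed this in advance, so it is no test of stability. With a window of 1 kb FZD8 left the list of Wnt receptor genes with MYC in 3 SLK-KO and 0 WT lists, which then numbered 0. The difference in POL2 summit number was 0 for NCBP2 and ADGRE5 in lists of equal length and 0 for FZD8 within 1 kb. For KMT2D, 0 as reported, it was 0.333 with a score of at least 5, within 10 kb and at the start of the gene record. When a library was left out it ranged from -0.5 to 0.5 for KMT2D, from -1 to 0 for NCBP2, from -2.5 to -1 for FZD8 and from 0.667 to 3.17 for ADGRE5.

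The reversals were all in the log10 distance of POL2 from the MYC site when a library was left out: KMT2D from -0.975 to 0.18, NCBP2 from -0.0184 to 0.163, FZD8 from -0.00379 to 0.000982 and ADGRE5 from -0.0277 to 0.00573. For KMT2D this rests on WT replicate 2, which had no POL2 summit at the promoter, and for the others the differences were near 0. The shared-site rank difference of NCBP2 ranged from 0.55 to 0.90, of FZD8 from 0.33 to 0.68 and of the PRKAG1 start from 0.17 to 0.84. That at PRKAG1 could not be computed with sites chained at 100 bp, which split it. Whether equal replicate numbers pair WT with SLK-KO libraries is not stated in the labels. The deviations in site presence of equal numbers correlated at most at 0.0317 in MYC and 0.0058 in POL2. These low values show no pairing in site presence and cannot decide whether the cultures were paired. A replicate block, with sign flips within same-numbered pairs, gave the same differences, such as -1.85 for ADGRE5 and 0.49 for FZD8 (exact p = 0.25 for both, and no smaller value was possible).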
